A study of Mus musculus with 4 samples.

Results

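The subcortical maternal complex is a protein assembly of the mammalian egg, and the genes described here are its 7 mouse members Nlrp5, Ooep, Tle6, Khdc3, Padi6, Nlrp2 and Zbed3. They were taken by symbol, whatever their level, and all 7 were present among the 20171 genes of the deposited gene table. Their transcripts made up 128 of the 68012 isoforms of the isoform table (21 of Nlrp5, 13 of Ooep, 14 of Tle6, 19 of Khdc3, 14 of Padi6, 12 of Nlrp2 and 35 of Zbed3), and 106 of the 49271 isoforms of a separate table of divided oocytes.

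The complex lies beneath the egg membrane, is made from maternal transcripts while the oocyte grows, and is handed on to the blastomeres of the cleaving embryo. NLRP5, OOEP and TLE6 form its core, KHDC3 binds to that core, and PADI6, NLRP2 and ZBED3 were found with it later. Female mice that lack a core member produce eggs that are fertilized but stop dividing in the first cleavages, and the complex is known for its part in spindle positioning, organelle distribution and the storage of maternal products in cytoplasmic lattices.

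The study read full-length cDNA of single mouse blastomeres on the PacBio platform to follow genes and isoforms through preimplantation development. Eggs and embryos came from C57BL/6J females of 6 to 8 weeks, superovulated with PMSG and hCG and mated with DBA/2NCrl males (the strain label reads DBA/2J x C57BL/6J), and no group carried a mutation or a drug treatment. Oocytes in meiosis II were collected from unmated females 20 h after hCG, zygotes at 22 to 24 h, early 2-cell embryos (E2C) at 30 to 32 h, late 2-cell embryos (L2C) at 46 to 48 h, 4-cell embryos at 54 to 56 h, 8-cell embryos at 68 to 70 h, 16- and 32-cell embryos at 78 to 80 h and early blastocysts at 88 to 90 h. Mouse embryonic stem cells (mESC) were of the male E14 Tg2A line, cultured rather than taken from an embryo. A table of a further run held intact, 1/2 and 1/4 oocytes. Outside that table the sequencing run was known for oocytes and zygotes only. For the other groups it was not known, so run and stage cannot be told apart there.

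The tables held 161 cells with 4985 to 389775 UMIs (unique molecular identifiers, each marking a single captured RNA molecule) and a median of 38914. Values were deposited as copies per 100,000 UMIs of a cell, so each is a share of the captured molecules of that cell and not an absolute amount, and a molecule counts once whatever its length. Of the cells, 121 belonged to 43 named oocytes, zygotes and embryos, and the embryo was the replicate. They comprised 10 oocytes and 9 zygotes, with 5 embryos at E2C, 6 at L2C, 5 at the 4-cell stage and 4 each at the 8-cell and 16-cell stages. L2C replicate 1 was read from 1 cell with 17971 UMIs, where a single molecule corresponds to 5.56 copies. Its values, zeros among them, are therefore coarse. The 22 cells of 32-cell embryos, 13 blastocyst cells and 5 mESC named no embryo and were only described. Whether 2 runs reused an embryo number could not be read from the column names. A list of 7 oocyte genes (Zp1, Zp2, Zp3, Gdf9, Bmp15, H1foo, Oosp1) had a median summed level of 3556 copies in oocytes, 2466 in zygotes, 687 in E2C and 105 in L2C. Later it did not fall steadily, with medians of 206 at the 4-cell, 110 at the 8-cell, 199 at the 16-cell and 19.2 at the 32-cell stage. Blastocyst cells had a median of 272 and mESC 132, and the source of these molecules was not tested. Of 9 markers of cumulus and granulosa cells, 6 were in the table, and their summed level in oocytes was 4.42 to 9.81 copies, with Tnfaip6 at 0.

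In oocytes, zygotes and E2C the 7 genes together held a median of 910, 874 and 1113 copies per 100,000 UMIs, and in L2C 41.5. Most of this was a single gene. Zbed3 accounted for a median of 94.5% of the summed copies in oocytes, 84.9% in zygotes, 89.3% in E2C and 61.3% in L2C. Without Zbed3 the other 6 genes summed to medians of 49.5, 125, 107 and 19.0 copies. The lowest E2C sum of all 7 (794) stood far above the highest L2C sum (106).

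**Figure D1:**
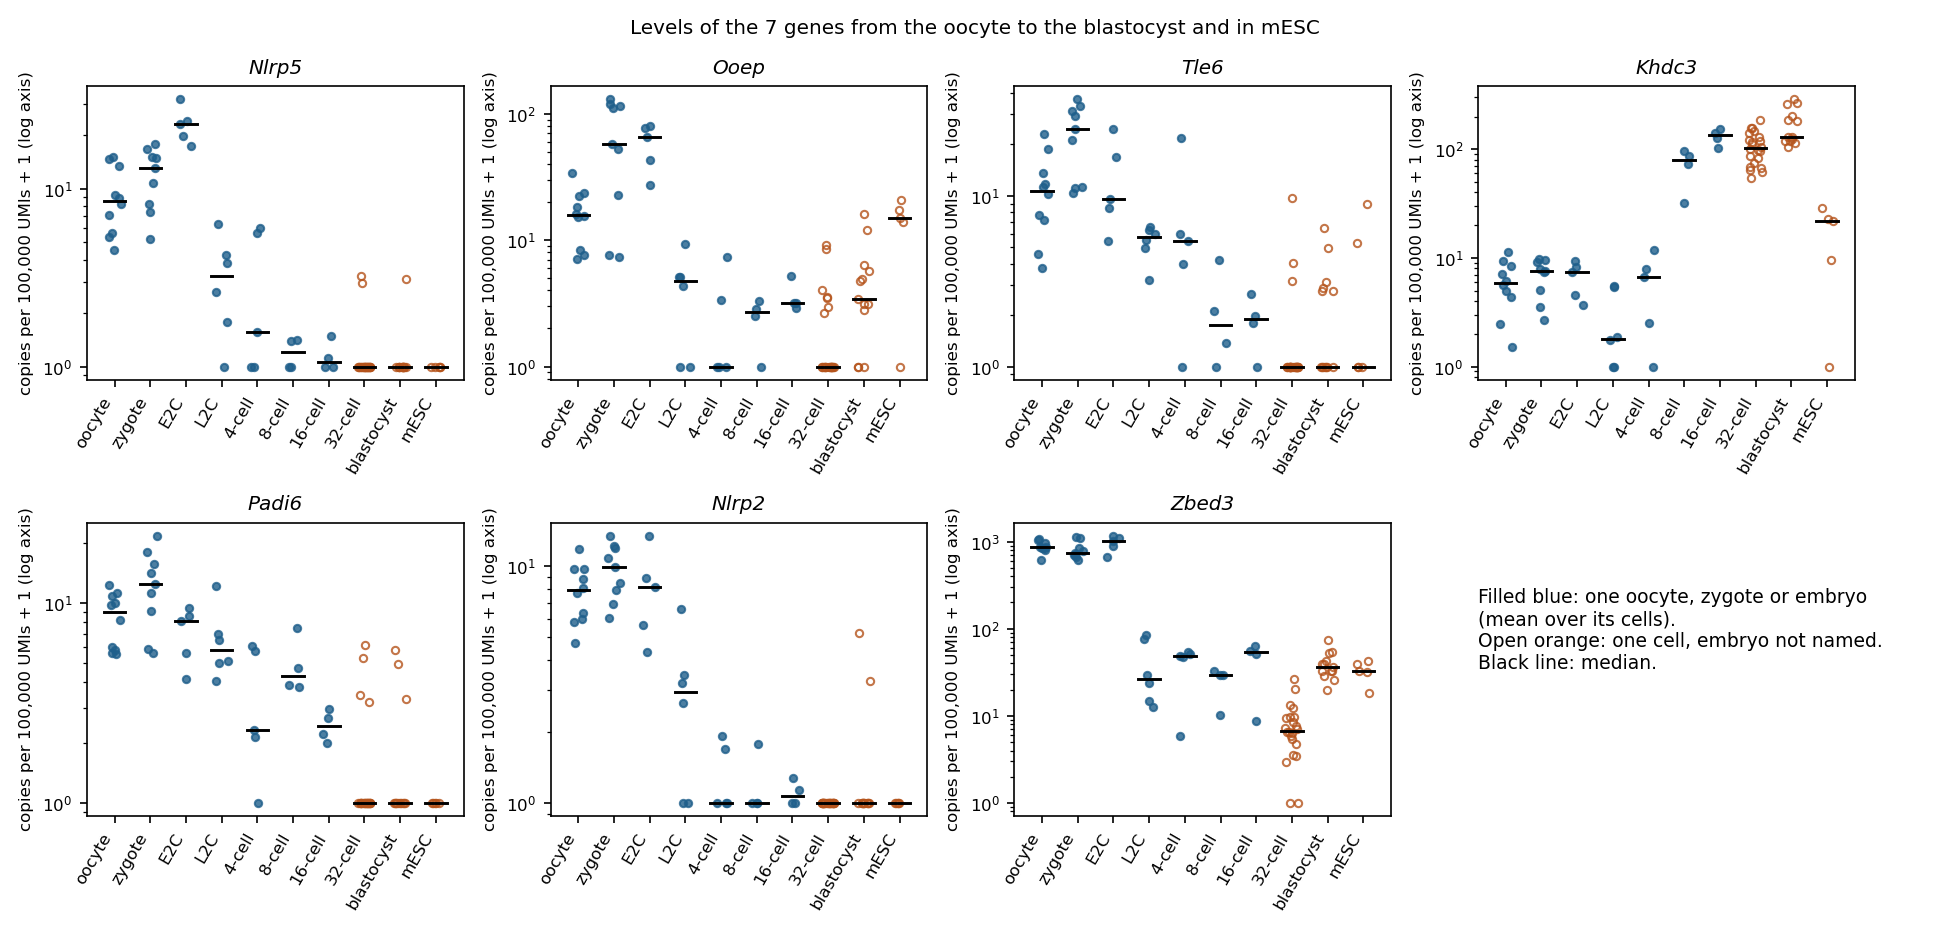
Level of each gene (copies per 100,000 UMIs plus 1, log axis) from the oocyte to the blastocyst and in mESC. Filled points are single oocytes, zygotes or embryos, open points are cells whose embryo was not named, and the black line is the median. Nlrp5, Ooep, Nlrp2 and Zbed3 dropped between E2C and L2C, whereas Khdc3 was highest from the 8-cell stage to the blastocyst.

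Adjacent stages were compared with limma in a joint fit of 11682 genes, on log2(copies + 1), and a gene was called where its unadjusted p was under 0.01 and its log2 difference exceeded 1 in either direction. The limits are those of the study's methods. Adjusted p values were computed by the Benjamini-Hochberg method over every gene in the fit. Between oocyte and zygote 2 of the 7 genes were called higher, Ooep and Tle6, where 2.92% of all genes were. Between zygote and E2C only Tle6 was called, lower, against 7.27% of all genes called in either direction. Between E2C and L2C 4 of the 7 were called lower, Nlrp5, Ooep, Nlrp2 and Zbed3, and none higher. On the recovered UMIs edgeR and DESeq2 each called 6 lower there, with Tle6 and Khdc3 added. Of all genes tested 48.4% were called there, and 22.8% were called lower.

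The later steps held a single call among the members. Khdc3 was called higher between the 4-cell and the 8-cell stage, where 15% of all genes were called and 4.47% were called higher. Neither the step from L2C to the 4-cell stage (6.69% of all genes called) nor that from the 8-cell to the 16-cell stage (3.36%) held a called member by limma. At an unadjusted p under 0.05 each of these steps held 2 members by limma, Khdc3 and Zbed3 in the first and Khdc3 and Padi6 in the other. edgeR called 0 members in both, and DESeq2 called Khdc3 in the first and 0 in the other. The median log2 difference of the 7 members from E2C to L2C was −1.89, beside 0.03 for all genes tested, and the median of all genes was 0.11 from zygote to E2C and −0.16 from the 4-cell to the 8-cell stage.

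**Figure D2:**
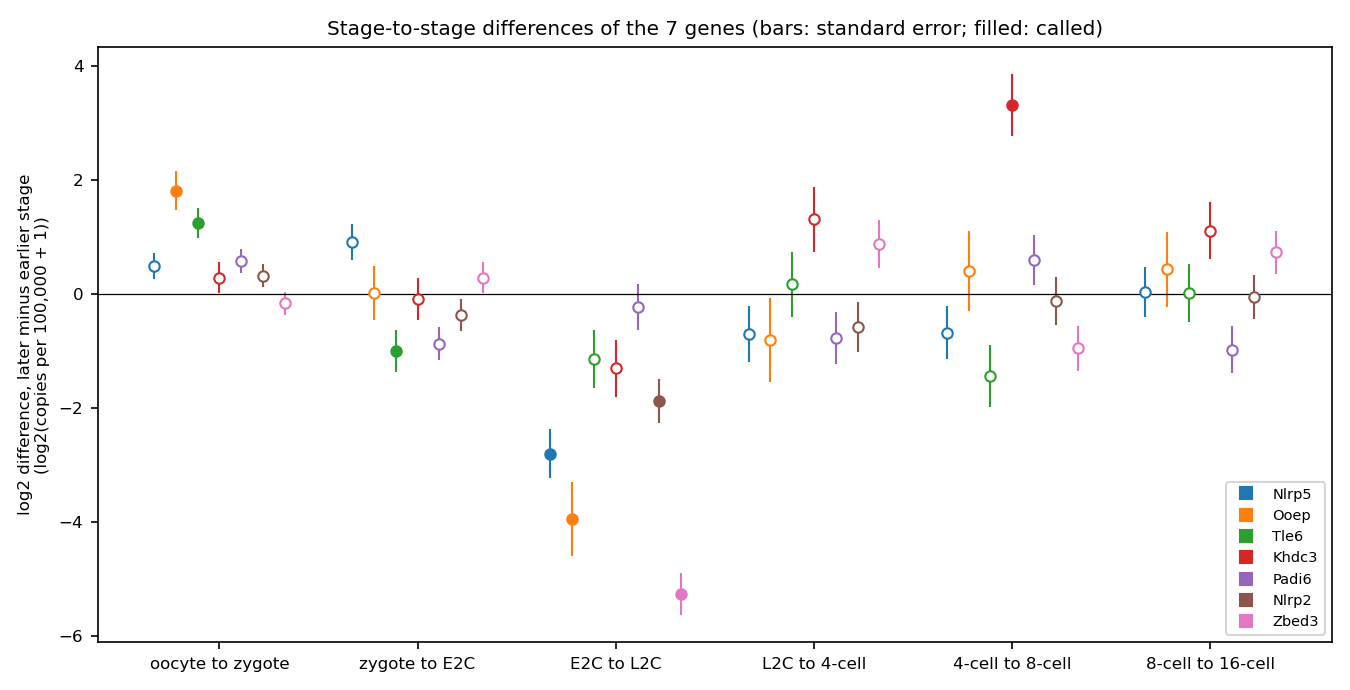
Log2 difference of each gene between adjacent stages (later minus earlier, log2(copies per 100,000 UMIs + 1)) with its standard error from limma. Filled points passed the call limits: Ooep and Tle6 from oocyte to zygote, Tle6 from zygote to E2C, Nlrp5, Ooep, Nlrp2 and Zbed3 from E2C to L2C, and Khdc3 from the 4-cell to the 8-cell stage.

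Nlrp5 (chr7:23385889-23441922, plus strand, mm10) encodes the large leucine-rich repeat protein also called MATER, which holds the core together. Oocytes had 3.55 to 14.2 copies (median 7.54), zygotes 4.23 to 16.9 (median 12.1), and the 5 E2C embryos 31.0, 23.3, 19.0, 16.5 and 22.1. E2C had the highest median of any stage, and only the lowest of them lay within the zygote range. In L2C the values were 0, 3.22, 5.33, 2.83, 0.784 and 1.61 copies, all below every E2C embryo. The log2 difference was 0.49 ± 0.23 (SE) from oocyte to zygote (limma, adjusted p = 0.162), 0.91 ± 0.32 from zygote to E2C (adjusted p = 0.0419, under the fold limit) and −2.81 ± 0.43 from E2C to L2C (adjusted p = 1.39e-07). From the 8-cell stage on the medians were at most 0.199 copies. In mESC no Nlrp5 molecule was seen among 103590 UMIs, which allows up to 2.90 copies per 100,000 (counting error only). In order of the median, E2C stood first, then zygote and oocyte, whose ranges overlapped, then L2C and the 4-cell stage, which also overlapped.

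Ooep (chr9:78376109-78378725, minus strand) encodes the KH-domain protein also called FLOPED, the small partner of NLRP5 and TLE6. Oocytes held 6.09 to 32.9 copies with a median of 14.8, and zygotes 6.35 to 129 with a median of 56.8. The zygotes were therefore more spread than the oocytes, and their lower end reached into the oocyte range. E2C embryos had 75.8, 26.4, 64.9, 42.2 and 78.9 copies and L2C embryos 0, 0, 3.36, 8.34, 4.07 and 4.10, with no overlap between these groups. The log2 difference from oocyte to zygote was 1.80 ± 0.35 (SE, limma, adjusted p = 0.000141). It was 0.02 ± 0.47 from zygote to E2C, and −3.96 ± 0.65 from E2C to L2C (adjusted p = 5.47e-07). Ooep was then low up to the blastocyst (median 2.44 copies), whereas the 5 mESC had a median of 14.0 copies, with 1 cell at 0 and the highest at 20.0. The sister cells of an E2C embryo were closest in Ooep in replicate 4, with 41.5 and 43.0 copies, and farthest apart in replicate 3, with 29.4 and 100. In order of the median, E2C and zygote stood first and overlapped, followed by oocyte and mESC.

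The rise of Ooep between oocyte and zygote was not alike in all runs. In run 1 the 5 oocytes had 14.4 to 22.6 copies and the 4 zygotes 52.0 to 120. The only oocyte of run 2 had 32.9 copies and its 2 zygotes 110 and 129. In run 3 the 4 oocytes had 6.09 to 14.6 copies and the 3 zygotes 6.35 to 21.9. Thus the stages were apart in runs 1 and 2 and overlapped in run 3. Within run 1 the log2 difference was 2.08 (limma, adjusted p = 1.02e-09), where 8.49% of the 6737 genes tested were called in either direction, and within run 3 it was 0.08 (adjusted p = 0.944), where 2.36% of 5769 genes were called. The difference between the runs was itself significant in limma, with the effect in run 3 lower by 1.99 ± 0.38 (SE) on the log2 scale (adjusted p = 0.00141), as it was for 132 of 7522 genes at an adjusted p under 0.05. With the run as a block, Ooep remained higher in zygotes by 1.36 (adjusted p = 3.24e-05). The run 3 zygotes correlated with run 3 oocytes at a median r of 0.915 and with run 1 zygotes at 0.880, whereas run 1 zygotes correlated with run 1 oocytes at 0.882. The part of this similarity in the Ooep values was not tested.

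**Figure D3:**
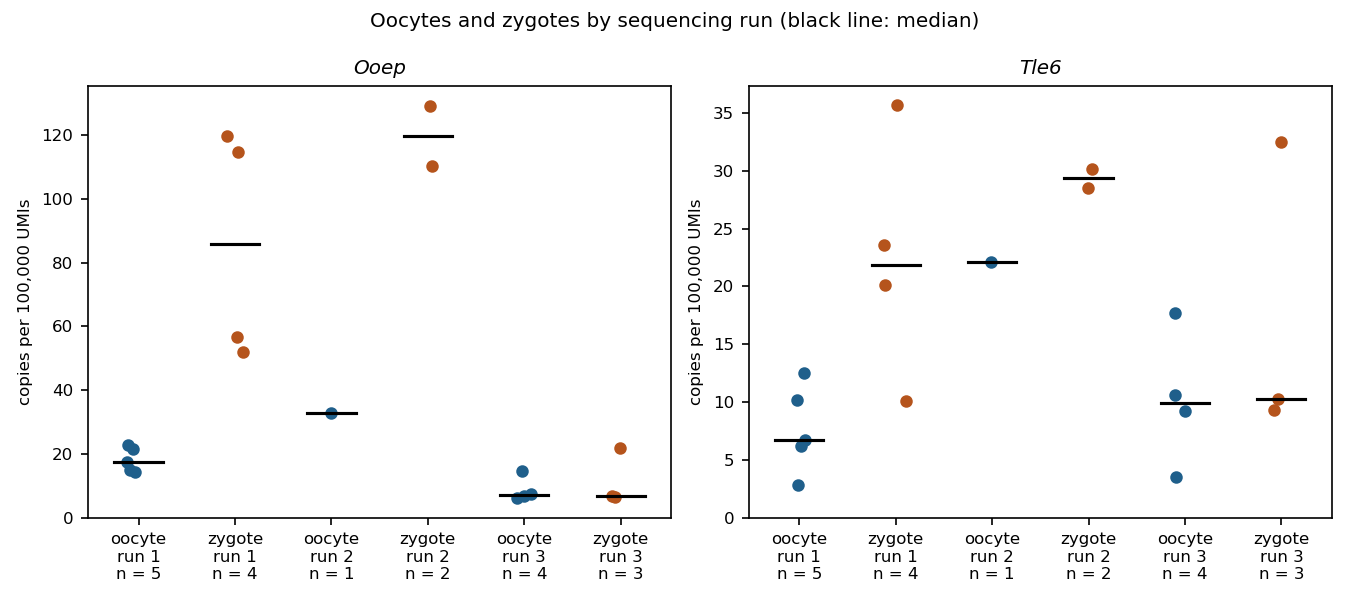
Copies of Ooep (left) and Tle6 (right) per 100,000 UMIs in each oocyte and zygote, separated by sequencing run (n below each group, black line: median). Zygotes of run 1 and run 2 lay above the oocytes of their run in Ooep, while the 3 zygotes of run 3 (6.35 to 21.9) overlapped its 4 oocytes (6.09 to 14.6).

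Tle6 (chr10:81590904-81601073, minus strand) encodes a Groucho-related WD40 protein, the third core subunit. Its level was 2.78 to 22.1 copies in oocytes (median 9.73) and 9.31 to 35.7 in zygotes (median 23.6). The E2C embryos had 8.52, 4.42, 7.48, 15.8 and 23.7 copies and the L2C embryos 5.56, 2.22, 4.54, 5.31, 4.93 and 3.96. By the median, zygotes were the highest group, followed by oocytes, E2C and L2C, and each neighbour in this order overlapped the next. By the mean, E2C stood above oocytes. The zygote mean was higher than that of the oocytes by 1.24 ± 0.27 on the log2 scale (SE, limma, adjusted p = 0.000681), and by 1.02 with the run as a block (adjusted p = 0.00327). From zygote to E2C the difference was −1.01 ± 0.37 (unadjusted p = 0.00785 in limma, adjusted p = 0.0533), and that call was lost in 5 of 9 other settings of the fit and on leaving out E2C replicate 1, 2 or 3 (−1.24 to −0.76 over the 5 replicates left out). From E2C to L2C it was −1.14 ± 0.51 (adjusted p = 0.0474), which missed the call. Within run 1 the rise from oocyte to zygote was 1.56 (adjusted p = 0.000211), and within run 3 it was 0.45 (adjusted p = 0.640). The difference between those runs (−1.10 ± 0.48, adjusted p = 0.287) did not pass the test. At the 4-cell stage replicate 3 had 20.9 copies, and the other 4 embryos 0 to 4.97.

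Khdc3 (chr9:73101836-73104438, plus strand) encodes FILIA, a KH-domain protein that binds the core and is also known for guarding genome integrity in embryos and stem cells. It was the only member with its highest levels late. Oocytes had 0.508 to 10.2 copies (median 4.90), zygotes 1.69 to 8.76 (median 6.49) and the E2C embryos 8.26, 7.23, 6.44, 3.58 and 2.70, so these stages overlapped throughout. L2C embryos had 0, 4.49, 4.34, 0, 0.861 and 0.736 copies, and the difference from E2C (−1.31 ± 0.50, limma, adjusted p = 0.0213) missed the call. The 4-cell embryos had 6.82, 0, 1.52, 10.7 and 5.63 copies, the 8-cell embryos 72.0, 31.2, 95.3 and 85.8, and the 16-cell embryos 141, 152, 125 and 101. Every 8-cell embryo lay above every 4-cell embryo, and every 16-cell embryo above every 8-cell embryo. From the 4-cell to the 8-cell stage the log2 difference was 3.31 ± 0.54 (SE, limma, adjusted p = 6.55e-06), and from the 8-cell to the 16-cell stage 1.11 ± 0.51 (adjusted p = 0.376). In 32-cell embryos the cells ranged from 52.9 to 186 copies (median 101), in blastocysts from 104 to 287 (median 130) and in mESC from 0 to 28.0 (median 21.0). The blastocyst cells were all above the mESC. Another annotated gene, Gm20509 (chr9:73102470-73117920), lies over Khdc3 on the same strand, so molecules in the shared stretch could have been given to either gene.

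Padi6 (chr4:140727355-140742643, minus strand) belongs to the peptidylarginine deiminases and is required for the cytoplasmic lattices of the egg. Its values were 4.57 to 11.2 copies in oocytes (median 7.98), 4.59 to 20.6 in zygotes (median 11.5), 3.17 to 8.47 in E2C and 3.08 to 11.1 in L2C. The medians of E2C and L2C were 7.09 and 4.83, and in the order of the median, zygote, oocyte, E2C, L2C, each range overlapped the next. Limma called no step for Padi6, whereas edgeR called it lower from zygote to E2C, and limma without array weights lower from L2C to the 4-cell stage. The differences with the lowest p were 0.57 ± 0.21 from oocyte to zygote (limma, adjusted p = 0.0641), −0.88 ± 0.29 from zygote to E2C (adjusted p = 0.0343, under the fold limit) and −0.98 ± 0.41 from the 8-cell to the 16-cell stage (adjusted p = 0.298). From E2C to L2C it was −0.24 ± 0.41 (adjusted p = 0.633). Low levels persisted longer than those of Nlrp2: 8-cell embryos still had 2.81 to 6.51 copies of Padi6 and 16-cell embryos 0.986 to 1.96.

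Nlrp2 (chr7:5298547-5351035, minus strand) is a further NLR family member, on the same chromosome as Nlrp5. It had 3.71 to 10.8 copies in oocytes (median 6.92), 5.04 to 12.4 in zygotes (median 8.89) and 7.19, 3.34, 4.62, 7.85 and 12.4 in the E2C embryos. In L2C the values were 5.56, 0, 0, 2.48, 1.64 and 2.21 copies, and 1 embryo (replicate 1, with a single molecule) reached into the E2C range. The log2 difference from E2C to L2C was −1.89 ± 0.39 (SE, limma, adjusted p = 3.04e-05), while the earlier steps were 0.32 ± 0.20 and −0.37 ± 0.28. From the 4-cell stage on no embryo exceeded 0.923 copies. The 32-cell cells held 0 Nlrp2 molecules of 762806 UMIs, which allows up to 0.393 copies per 100,000.

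Zbed3 (chr13:95323612-95337841, plus strand) encodes a BED-type zinc finger protein that binds axin in Wnt signalling and was found in the complex. Oocytes had 614 to 1064 copies (median 856), zygotes 609 to 1117 (median 736) and the E2C embryos 656, 1113, 895, 1024 and 1161. These stages overlapped, and neither step was called (−0.17 ± 0.20 and 0.28 ± 0.27). The L2C embryos had 83.5, 11.5, 13.6, 76.2, 28.4 and 22.7 copies, all far below any E2C embryo. The log2 difference was −5.27 ± 0.37 (SE, limma, adjusted p = 3.03e-18), the largest drop among the members. The sister cells of an E2C embryo were closest in replicate 5, with 1149 and 1173 copies, and farthest apart in replicate 3, with 817 and 973. In L2C they ranged from 67.9 and 84.4 copies in replicate 4 to 17.2 and 39.6 in replicate 5.

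Zbed3 was still counted at a low level after L2C, as were the oocyte genes listed above. The source of these late molecules was not tested. The 4-cell embryos had 46.5, 4.90, 49.6, 47.5 and 53.3 copies, the 8-cell embryos 28.5, 9.30, 28.7 and 31.8, and the 16-cell embryos 50.9, 7.66, 61.8 and 54.9. In each of these stages replicate 2 was the lowest. Cells of 32-cell embryos had a median of 5.79 copies, blastocyst cells 35.4 and mESC 31.9. Of the oocytes and zygotes, those of run 2 had 614 and 609 to 671 copies, the lowest oocyte and the 2 lowest zygotes. The run was not known from E2C on or for mESC, and its part in these values was not tested.

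Upstream sequences are shown for Zbed3 and Nlrp2, both called lower from E2C to L2C, and for Khdc3, called higher later. The model of the leading oocyte isoform of Zbed3 began 187 bases before the RefSeq start, that of Khdc3 172 and that of Nlrp2 9. Of the 250 bases before the RefSeq start (GRCm38.p6) the part ahead of that isoform is therefore printed, 5′ to 3′ on the gene's strand, with E-boxes (CANNTG, the kind of site bound by the oocyte factor FIGLA and many other helix-loop-helix proteins) in capitals.
Zbed3, chr13:95323355-95323417, plus strand: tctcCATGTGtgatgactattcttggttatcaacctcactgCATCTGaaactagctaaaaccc
Nlrp2, chr7:5351045-5351285, minus strand: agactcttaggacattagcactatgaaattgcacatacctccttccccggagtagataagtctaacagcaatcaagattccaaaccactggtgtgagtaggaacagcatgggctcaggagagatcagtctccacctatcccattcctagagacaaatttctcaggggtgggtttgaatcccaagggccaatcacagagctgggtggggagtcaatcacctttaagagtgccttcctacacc
Khdc3, chr9:73102148-73102225, plus strand: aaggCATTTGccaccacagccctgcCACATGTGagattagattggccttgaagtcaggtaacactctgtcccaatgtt
Isoform models starting within 250 bases of the RefSeq start held 95.6% of the isoform UMIs of Zbed3 in oocytes, 85.2% of those of Nlrp2 and 87.7% of those of Khdc3. Zbed3 has 2 further RefSeq starts downstream, with 0.241% and 0% of its oocyte UMIs. Most other Zbed3 models with the 5′ end start near the RefSeq start, among them PB.21590.47 at 95323603 and PB.21590.24 at 95323598. The sequence printed for Zbed3 lies ahead of the leading model and stops short of the start of those others. Where the molecules of the leading model start was not tested. Counted over both strands, the whole windows of 250 bases hold 3 E-boxes for Zbed3, 0 for Nlrp2 and 5 for Khdc3, of which the printed parts hold 2, 0 and 3. Those of Nlrp5, Ooep, Tle6 and Padi6, at the RefSeq start with the most oocyte molecules nearby, hold 2, 1, 2 and 2. Isoform models starting within 250 bases of these starts held only 25.2%, 17.3%, 42.0% and 42.5% of their oocyte isoform UMIs. The whole window of Ooep lies inside the span of its leading isoform, so it is not sequence upstream of that isoform. Of 32851 promoter windows of the same length, 66.2% hold at least 1. TATAAA, present in 12.4% of windows, was in none of these 7, and TAATTG or TAATTA, the core read by the oocyte factor NOBOX (11.3% of windows), was in those of Nlrp5 and Ooep. These matches describe the letters only.

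The share that each gene took of the summed copies of the 7, a measure that the total RNA of a cell does not enter, changed at both transitions. Between oocyte and zygote the mean share of Ooep went from 1.78% to 7.82% and that of Zbed3 from 94.0% to 85.6% (two-sided exact permutation test, adjusted p = 0.0294 each over the 21 comparisons). Between E2C and L2C Zbed3 went from 89.3% to 59.6%, Padi6 from 0.586% to 11.1% and Tle6 from 1.08% to 8.81% (exact permutation test, p = 0.00433 and adjusted p = 0.0294 each, with E2C and L2C not overlapping). All L2C embryos together held 28 UMIs of Padi6 and 26 of Tle6, so their L2C shares rest on few molecules. The shares of the 7 genes are tied to each other, so a fall of Zbed3 by itself raises those of the others. The levels of Padi6 and Tle6 did not rise from E2C to L2C (log2 differences −0.24 ± 0.41 and −1.14 ± 0.51, SE, limma). In all, 5 of 21 comparisons passed, and they are not independent. In the isoform table none of these 5 passed (exact permutation test, adjusted p = 0.167 to 0.351). The Ooep and Zbed3 shares moved by 7.74 and −10.8 percentage points within run 1 (exact permutation test, adjusted p = 0.0556 over the 7 genes), and by 0.130 and −0.959 within run 3 (exact permutation test, adjusted p = 0.933).

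Of the 128 isoforms 71 passed the filter on low values, which does not describe the other 57. Between oocyte and zygote 9 were called higher (4 of Ooep, 2 of Tle6 and 3 of Zbed3), where 1.16% of all 29409 isoforms were, and none lower. Between zygote and E2C 5 were called higher and 6 lower (5.18% of all isoforms called). Of these, 2 higher were of Ooep and 3 of Zbed3, while 3 lower were of Tle6, 2 of Padi6 and 1 of Zbed3. Between E2C and L2C 26 were called lower (13.1% of all), of which Khdc3 and Tle6 had 1 each. Thus Ooep, Padi6 and Zbed3 from zygote to E2C, Zbed3 from oocyte to zygote and Khdc3 and Tle6 from E2C to L2C had called isoforms where limma did not call the gene. Both isoforms called from the 4-cell to the 8-cell stage were higher and of Khdc3 (3.63% of all called higher). By limma, 0 were called from L2C to the 4-cell stage (4.29% of all called) and from the 8-cell to the 16-cell stage (1.97%), with 1 and 4 at an unadjusted p under 0.05.

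For Ooep a single transcript prevailed. PB.77012.90 (chr9:78377387-78378858, 3 exons) held 80.2% of the oocyte isoform UMIs and 82.0% in zygotes, and went from 4.76 to 33.6 copies in oocytes (median 15.5) to 5.74 to 130 in zygotes (median 50.8), scaled to the total of the isoform table. It ended short of the annotated 3′ end, which only 2.52% of the oocyte UMIs reached within 100 bases. Nlrp2 was also mostly short: PB.65131.33 (5 exons) and PB.65131.42 (4 exons) held 52.2% and 25.2% of its oocyte isoform UMIs, and the model of 12 exons that reaches both annotated ends 0.870% (exact 95% interval 0.0220% to 4.75%). By contrast, the 16-exon PB.54498.7 of Padi6, which reaches both ends, held 30.1% in oocytes and 34.6% in zygotes. Nlrp5 was the most divided, with 8.15% in its leading isoform and 2.96% of oocyte UMIs reaching both ends. Intervals and shares over UMIs cover counting error only.

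The 14-exon transcript PB.7935.5 led Tle6 in oocytes and zygotes, with 29.5% and 33.9% of its isoform UMIs, and held 13.2% in E2C. There the 5-exon PB.7935.4, which has the same 3′ end but lacks the 5′ part, led with 29.4%. Weighted by UMIs, the isoform length of Tle6 was 1079 to 1619 bases in the zygotes (mean 1411) and 826 to 1261 in the E2C embryos (mean 1017), a difference of −394 bases (exact permutation test, p = 0.0020, adjusted p = 0.0280 over 14 comparisons). The ranges overlapped. Leaving out E2C replicate 2, 3, 4 or 5 gave an adjusted p of 0.0783 in the same exact permutation test, with the difference between −455 and −346 bases. The other 13 length comparisons did not pass. Nor did the test of isoform switching call a member. Among 7 members tested from oocyte to zygote the lowest gene-level adjusted p in limma was 0.416 (Zbed3), with 4 of 37 isoforms at p under 0.05, and 0% of all 2831 genes were called. From zygote to E2C it was 0.120 (Zbed3), with 9 of 50 isoforms at p under 0.05, against 1.88% of 2293 genes called. From E2C to L2C no member had enough molecules to be tested.

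In Zbed3, 4 called isoforms moved opposite to the fitted difference of the gene, which was itself not called. PB.21590.24, PB.21590.47 and PB.21590.219 rose from oocyte to zygote by 2.01, 1.85 and 1.17 on the log2 scale (limma, adjusted p = 9.23e-08, 4.40e-06 and 0.00138), and the short 2-exon PB.21590.913 (690 bases) fell by 1.16 from zygote to E2C (adjusted p = 0.0163). The first 3 share the splice pattern of the main transcript PB.21590.5 (chr13:95323418-95337848) but end at 95337522, 95337421 and 95337207. In all, 11 isoforms had this pattern, and 9 of them ended 205 to 1360 bases before the annotated 3′ end. These 9 held 61 of 3058 UMIs in oocytes (1.99%, exact 95% interval 1.53 to 2.56), 321 of 3351 in zygotes (9.58%, 8.60 to 10.6) and 208 of 724 in E2C (28.7%, 25.5 to 32.2). This set was put together after its values were seen, and no test was made.

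By run, the share of early-ending molecules was 0 to 3.06% in the oocytes of run 1, 15.4% in that of run 2 and 0.312 to 3.63% in those of run 3. Among zygotes it was 6.28 to 32.0% in run 1, 16.5 and 18.6% in run 2 and 1.05 to 2.76% in run 3. The zygotes of run 3 were thus within the oocyte range of that run. The 5 E2C embryos had 36.1, 39.1, 25.6, 26.4 and 23.2%, all above every oocyte and above 8 of 9 zygotes. With the run as a block, PB.21590.24 (1.83, adjusted p = 8.36e-06) and PB.21590.47 (1.50, adjusted p = 0.000557) kept their call in limma and PB.21590.219 did not. Isoform UMIs were only 18.8% of the gene UMIs of Zbed3 in oocytes and 10.0% in E2C. From oocyte to E2C they were 71.5% to 88.2% for Nlrp5, Ooep, Tle6, Khdc3 and Nlrp2, and 60.8% to 72.0% for Padi6. The isoforms of Zbed3 thus describe a minor share of its molecules.

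**Figure D4:**
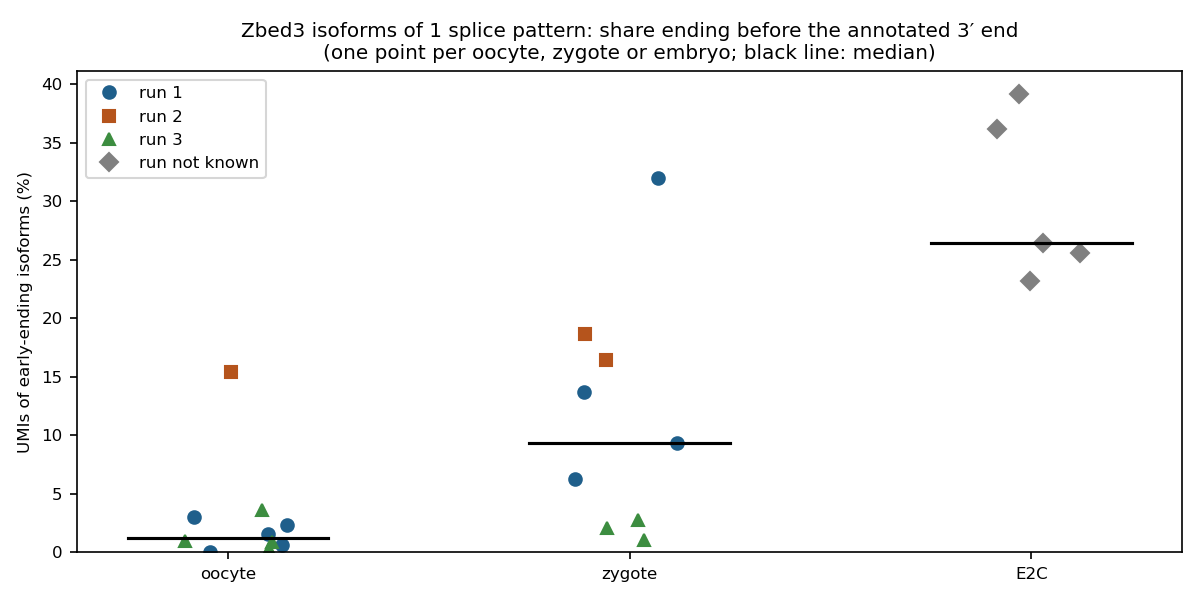
Share (%) of Zbed3 isoform UMIs of the main splice pattern that ended before the annotated 3′ end, in each oocyte, zygote and E2C embryo, with the sequencing run by symbol and the median as a black line. Oocytes were at most 15.4%, zygotes of run 3 at most 2.76%, and E2C embryos 23.2 to 39.1%.

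Khdc3 has an intron near its 3′ end (chr9:73103890-73104342, 453 bases) that its transcripts either keep or remove. The annotated coding sequence is 1320 bases long with it kept and 1038 bases with it removed. The exon end before it and what follows are printed from the annotated transcripts (GENCODE, mm10, plus strand), with the exon in lower case. In the first, capitals mark the first bases of the kept intron, in the other, the bases that follow once it is removed.
Khdc3, intron kept, chr9:73103860-73103949: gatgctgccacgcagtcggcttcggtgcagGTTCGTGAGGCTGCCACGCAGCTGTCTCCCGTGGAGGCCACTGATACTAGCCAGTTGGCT
Khdc3, intron removed, joined from chr9:73103860-73104357: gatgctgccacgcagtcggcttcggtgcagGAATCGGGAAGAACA
Of the molecules that showed either form, the intron was removed in 50 of 76 in oocytes (65.8%, exact 95% interval 54.0 to 76.3), 70 of 94 in zygotes (74.5%, 64.4 to 82.9) and 21 of 31 in E2C (67.7%, 48.6 to 83.3). It was removed in 4 of 9 in L2C (44.4%, 13.7 to 78.8) and 13 of 27 at the 4-cell stage (48.1%, 28.7 to 68.1), where few molecules were seen. The numbers were 124 of 389 at the 8-cell stage (31.9%, 27.3 to 36.8), 288 of 944 at the 16-cell stage (30.5%, 27.6 to 33.6), 148 of 405 at the 32-cell stage (36.5%) and 146 of 784 in blastocysts (18.6%, 16.0 to 21.5). Per embryo with at least 3 such molecules the range was 33.3 to 100% in 8 oocytes, 60.0 to 84.6% in 9 zygotes, 55.6 to 75.0% in 4 E2C, 14.8 to 54.3% in the 8-cell and 16.9 to 35.5% in the 16-cell embryos. The 16-cell embryos lay below all zygotes and E2C embryos. In the isoform table this appeared as PB.76831.17, with the intron removed, leading in oocytes (50.6%), zygotes and E2C, and PB.76831.18, with it kept, leading from L2C on. In L2C and at the 4-cell stage it led by 5 to 1 and 12 to 11 UMIs, and it held 60.6% at the 8-cell stage and 73.6% in blastocysts. Both rose from the 4-cell to the 8-cell stage, by 2.16 ± 0.61 and 3.34 ± 0.56 on the log2 scale (limma, adjusted p = 0.0162 and 3.28e-05). The intron was chosen after its values were seen, so the shares are given without a test.

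**Figure D5:**
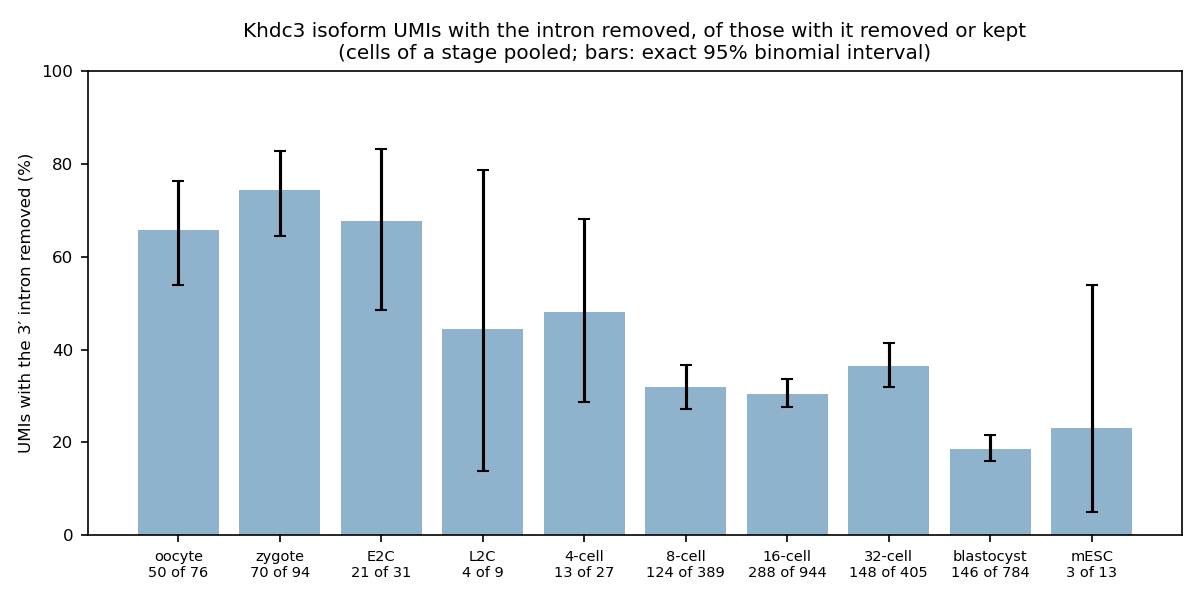
Share (%) of Khdc3 isoform UMIs with the 3′ intron removed, of those with it removed or kept, with the cells of a stage pooled (counts below each bar, error bars: exact 95% binomial interval, counting error only). The share was 65.8% in oocytes and 74.5% in zygotes and lay between 18.6% and 36.5% from the 8-cell stage to the blastocyst.

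In the table of divided oocytes (129744 to 289774 UMIs per column), the relative levels of each member in 1/2 and 1/4 oocytes overlapped those in intact oocytes. Zbed3 had 688, 547, 662 and 600 copies per 100,000 in the 4 intact oocytes, 643 to 810 in the 6 samples of 1/2 oocytes (median 676) and 587 to 1015 in the 6 of 1/4 oocytes (median 732). Ooep had 4.43, 10.4, 11.0 and 6.15 copies in the intact oocytes, 3.85 to 19.3 in 1/2 oocytes and 6.27 to 13.5 in 1/4 oocytes. Nlrp2 had 6.57 to 13.7 copies in the intact oocytes, with 3 of 6 samples of 1/2 and 4 of 6 of 1/4 oocytes below this range, the lowest at 2.61. Padi6 had 6.40 to 14.6 in the intact oocytes, and 4 of 6 samples of 1/4 oocytes lay below, the lowest at 3.38. For Zbed3, 3 samples of 1/2 oocytes and 4 of 1/4 oocytes lay above the highest intact oocyte. Of 6 members tested with edgeR on the counts, 0 were called in 1/2 and in 1/4 oocytes, as were 0% of 2767 genes in each (185 and 255 genes at an unadjusted p under 0.05, with DESeq2 calling 0 and 4). Khdc3, with 0 to 8 molecules per column, did not pass the count filter. Of the 6 members, 0 in 1/2 oocytes and 2 in 1/4 oocytes were at an unadjusted p under 0.05. These were Nlrp2, with a log2 difference of −0.88 (edgeR, adjusted p = 0.488), and Zbed3, with 0.27. The labels did not say which 1/2 or 1/4 oocytes came from the same oocyte, so p values measure the spread between columns.

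Genes whose products are known to act with or beside the complex in the egg (11, all tested) moved mostly like Nlrp5 and Zbed3. Between E2C and L2C, where 22.8% of all genes were called lower, 9 of 11 were: the oocyte NLRP genes Nlrp4f, Nlrp9a, Nlrp9b, Nlrp9c and Nlrp14, the methylation factor Uhrf1, the ubiquitin pathway genes Ube2d3 and Skp1a, and the meiotic spindle gene Spin1. The median log2 difference of the 11 was −3.08. Spin1 went from 926 to 1097 copies in E2C to 51.5 to 170 in L2C (log2 difference −3.47 ± 0.31, limma, adjusted p = 1.66e-14), and Nlrp9c from 117 to 168 to 9.94 to 44.5 (−3.15 ± 0.34, adjusted p = 4.81e-12). In both the stages were fully apart.

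From oocyte to zygote 3 of these 11 were called higher, Nlrp14, the maintenance methyltransferase Dnmt1 and the actin-severing Cfl1, and none lower (2.92% of all genes called higher). Nlrp14 had 3.87 to 15.8 copies in oocytes (median 10.8) and 4.23 to 50.2 in zygotes (median 22.3). From zygote to E2C Nlrp9b and Cfl1 were called higher and Dnmt1 lower (7.27% of all genes called). Later calls were lower in Nlrp9c from L2C to the 4-cell stage (6.69% of all genes called) and in Spin1 from the 4-cell to the 8-cell stage (15%). The list was assembled with results of these data known and supports nothing by itself.

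Relatives of the members outside the complex behaved differently from them in single cases. Of 16 listed, 15 were in the table and 10 were tested. Between E2C and L2C 3 of the 10 were called, where 48.4% of all genes were. Dppa5a, a KH-domain relative of Khdc3 and Ooep known from pluripotent cells, was called higher from E2C (16.8 to 39.4 copies) to L2C (70.2 to 367 copies), by 3.01 ± 0.33 on the log2 scale (limma, adjusted p = 1.54e-11). Khdc1b, an oocyte KH-domain gene, was called lower, from 307 to 349 copies in E2C to 47.3 to 200 in L2C (−1.84 ± 0.34, adjusted p = 5.39e-06), as was Khdc1c (−1.34 ± 0.33, adjusted p = 0.000505). These Khdc1 genes are near copies of each other, so that molecules may have been exchanged between them. In the other steps no relative was called up to E2C, Khdc1b and Khdc1c were called lower from L2C to the 4-cell stage, Tle3 higher and Khdc1b lower from the 4-cell to the 8-cell stage, and Khdc1c lower from the 8-cell to the 16-cell stage.

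Across the 43 oocytes, zygotes and embryos, levels of the members other than Khdc3 were correlated with each other, from r = 0.611 (Ooep and Padi6) to 0.895 (Nlrp2 and Zbed3) on the log2 scale. Khdc3 had negative values with all others, from −0.463 with Tle6 to −0.164 with Ooep. These coefficients are descriptions over points that span 7 stages and share sequencing runs. Among 3877 genes at 10 or more copies in a stage, those most like the members were Bmp15 for Nlrp5 (r = 0.925), Ninj2 for Ooep (0.918), Miox for Tle6 (0.824), 1500009L16Rik for Khdc3 (0.905), Mcm3ap for Padi6 (0.768), Bscl2 for Nlrp2 (0.946) and C86187 for Zbed3 (0.981), each over 43 points. Bmp15 encodes an oocyte growth factor and is among the oocyte markers above.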

How the data were processed

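Single-cell cDNA was primed on polyA RNA with barcoded gel beads, pooled and sequenced in HiFi mode. SMRT-Link consensus reads were given barcodes and UMIs by scISA-Tools, and minimap2 placed them on mm10. Genes came from gffcompare, and isoforms from cDNA_Cupcake and a SQANTI3 filter, with those in fewer than 5 cells dropped. Values of the gene and isoform tables were deposited by the authors as CPM divided by 10 (copies per 100,000 UMIs of a cell), and 100% of positive values gave whole UMIs within 0.05 UMI. The divided-oocyte table, deposited without a stated unit, held whole numbers and was taken as UMI counts.

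Embryo values were means over cells. Stages were fitted with limma 3.58.1 (trend, array weights) on log2(copies + 1) of genes with at least 1 copy in at least 4 embryos. Isoform switches used limma on arcsine square roots of shares. Divided oocytes were tested with edgeR 4.0.16 (isoforms summed by gene, adjusted p under 0.05), with DESeq2 1.42.0 as an alternative, in R 4.3.3. Shares and lengths used exact permutation tests in scipy 1.17.1 (Python 3.11.15, numpy 2.4.6, pandas 2.3.3, drawn with matplotlib 3.10.9). The stage fits, the switch test, the edgeR test of divided oocytes and the permutation test were checked on simulated data. The fits with the run, the interaction and the test for outlying samples were not. The runs of oocytes and zygotes came from the study's cell lists. Sequences are from RefSeq promoters (GRCm38.p6, all 7 genes matched) and GENCODE transcripts. The members, the gene lists and the rule for named genes (all 7 members, listed genes by counts with values at 10 or more copies, and the 2 genes most like each member) were chosen with earlier results of these data known.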

Additional observations from a re-analysis of the deposited data

Results flagged for a closer look

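Single embryos or columns stood apart from the others of their group in 9 of 70 groups tested with Dixon's ratio. Chance gives about 1 in 20 where values are normally distributed. Groups of few molecules are not (Nlrp2 at the 8-cell stage rests on 2 UMIs), so the 9 cannot be read as an excess over chance. Among embryos these were Ooep in 16-cell replicate 2 (4.22 copies per 100,000 UMIs, the nearest other 2.19), Tle6 in 4-cell replicate 3 (20.9, nearest 4.97), Padi6 in L2C replicate 1 (11.1, nearest 5.97), Nlrp2 in 8-cell replicate 1 (0.768, the others at 0), and Zbed3 in 4-cell replicate 2 (4.90, nearest 46.5) and 8-cell replicate 2 (9.30, nearest 28.5). In the divided oocytes they were Khdc3 in 1/2 oocyte replicate 1 (3.70, nearest 1.54), Padi6 in 1/4 oocyte replicate 5 (14.6, nearest 6.56) and Zbed3 in 1/4 oocyte replicate 1 (1015, nearest 735). The Padi6 value of L2C replicate 1 rests on 1 cell with 17971 UMIs.

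The difference of Ooep between oocyte and zygote was lower in run 3 than in run 1 by 1.99 on the log2 scale (−1.99 ± 0.38 SE, limma interaction of stage and run, adjusted p = 0.00141).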

How the results depend on the processing

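Of 440 values under other settings, those that are counts of calls have no direction, and none of the others changed direction. In planned settings 24 main counts and 7 other values were marked as moved, and 15 other values as weaker. In settings added later these numbers were 5, 5 and 10. The calls of Nlrp5, Ooep and Zbed3 from E2C to L2C and of Khdc3 from the 4-cell to the 8-cell stage held in every setting run, and Nlrp2 lost its call with a pseudocount of 5. From oocyte to zygote the count of called members was 1 with a pseudocount of 5 (Ooep) and 0 within run 3. From zygote to E2C it was 0 with a pseudocount of 0.5, with a pseudocount of 5 and without array weights, 2 with edgeR (Tle6 and Padi6), and 2 at an adjusted p under 0.05 (Nlrp5 and Padi6). From E2C to L2C it was 3 with a pseudocount of 5, 5 with a pseudocount of 0.5 and without array weights (Khdc3 added), and 6 with edgeR, with DESeq2 and at an adjusted p under 0.05 (Tle6 and Khdc3 added). From L2C to the 4-cell stage it was 1 without array weights (Padi6) and 1 with DESeq2 (Khdc3). From the 4-cell to the 8-cell stage it was 2 with a pseudocount of 0.5, without cells under 10000 UMIs and with DESeq2 (Tle6 added each time), and from the 8-cell to the 16-cell stage 1 with a pseudocount of 5 (Khdc3). Isoform calls over all steps went from 48 to 11 with a pseudocount of 5. In the isoform table the share test passed 1 of 21 comparisons, Nlrp5 from zygote to E2C (exact permutation test, adjusted p = 0.0210), and none of the 5 reported (adjusted p = 0.167 to 0.351).

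Leaving out each E2C, L2C, 4-cell, 8-cell and 16-cell embryo and each intact oocyte of the divided-oocyte table in turn (no other oocyte and no zygote was left out) gave 0 to 2 called members from zygote to E2C, 4 to 5 from E2C to L2C, 0 to 1 from L2C to the 4-cell stage, 1 to 3 from the 4-cell to the 8-cell stage, 0 to 1 from the 8-cell to the 16-cell stage and 0 for divided oocytes, 44 to 51 isoform calls, 5 to 7 shares past the test, and 0 to 1 lengths. Single replicates added calls: from zygote to E2C Nlrp5 without E2C replicate 4, from L2C to the 4-cell stage Khdc3 without L2C replicate 2 and Zbed3 without L2C replicate 4, from the 4-cell to the 8-cell stage Tle6 and Zbed3 without 4-cell replicate 2 and Tle6 without 4-cell replicate 4 or 8-cell replicate 2, and from the 8-cell to the 16-cell stage Zbed3 without 16-cell replicate 2. From E2C to L2C, Tle6 was added without E2C replicate 2, and Khdc3 without E2C replicate 4 or 5 or L2C replicate 2 or 3. The cause was not tested. The settings within a run, the interaction of stage and run, and all of the leave-outs for isoforms, shares and lengths were added after seeing the data. No paired analysis was possible because the groups share no replicate numbers that tie embryos to each other. With a median of 38914 UMIs a cell holds less than 1 molecule of a gene at 1 copy per 100,000, so low levels after L2C rest on few molecules.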

Other observations

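Replicate 2 was the lowest in Zbed3 at the 4-cell, 8-cell and 16-cell stages, with 4.90, 9.30 and 7.66 copies per 100,000 UMIs. The 4-cell embryo was read from 2 cells with 25411 UMIs together, which held 2 molecules of Zbed3 and 0 of the other 6 genes. The 32-cell cells, whose run was not known, had a median of 5.79 copies. The same 16-cell embryo had the highest Khdc3 (152 copies) and Ooep (4.22 copies) of its stage, and the same 8-cell embryo the highest Padi6 (6.51), Tle6 (3.18) and Ooep (2.30). The sequencing run of these embryos was not known and its part was not tested.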
